A study of Ovis aries with 6 samples.

Results

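CDK1 and H2AZ1, a pair of genes whose transcripts are plentiful in dividing cells, were followed in dorsal skin of newborn Hu sheep lambs. Hu sheep are a Chinese breed whose lambs are born with a wavy fleece. Both genes were found through the RefSeq accession of the array probes, CDK1 as NM_001142508 and H2AZ1 (older symbol H2AFZ) as NM_001009270, and were 2 of 500 genes that could be named in this way. Each had 1 probe, A_70_P047446 for CDK1 and A_70_P051156 for H2AZ1, spotted in 1 place per array.

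The samples were 3 lambs with a large wave coat and 3 with a small wave coat, all Hu lambs aged 2 days, with 1 lamb per one-colour array; lambs are numbered by the replicate number of their label. No treatment, genotype or sex is part of the grouping. Per the series' design text the lambs had 1 sire, and the lambs of a pair, 1 of each coat type, had 1 dam, so the 6 lambs are relatives. Whole dorsal skin was used, which holds epidermis, hair follicles, dermis, vessels, fat and strips of muscle.

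CDK1 is the kinase that, bound to cyclins A and B, drives a cell into and through mitosis, and its transcript accumulates late in the cell cycle. H2AZ1 encodes the histone variant H2A.Z, which replaces H2A in nucleosomes at promoters and enhancers and is made in large amounts where cells divide. In skin with growing hair, dividing cells lie in the hair matrix at the base of the follicle, in the outer root sheath and in the basal layer of the epidermis. In bulk skin, fewer dividing cells and less RNA of these genes per cell cannot be told apart.

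The arrays differed in brightness. The 75th percentile of the processed signal, by which each array was scaled, ran from 205 to 392 in large wave and from 94.7 to 285 in small wave skin, and in each same-numbered pair it was higher for the large wave lamb. Between 51.4 and 70.7% of spots were well above background. Follicle tissue was present in the samples by its markers: each of the 5 hair shaft keratins and 4 inner root sheath genes with a probe was well above background on 6 of 6 arrays once spots marked as outliers were counted. Of 18 listed regulators of the hair matrix and cortex, 2 had a probe, BMP4 and GATA3 (also in the inner root sheath list), and of 12 markers of basal and follicle keratinocytes 0 could be matched.

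CDK1 was measured on every array. Its processed signal was 275, 172 and 197 in large wave lambs 1 to 3 and 162, 80.7 and 59.2 in small wave lambs 1 to 3. These signals were 22.7 to 42.0 times the lowest signal well above background on the same array in large wave lambs 1 to 3 and small wave replicate 1, and 8.96 and 12.9 times it in small wave replicates 2 and 3. CDK1 was therefore a transcript of moderate signal in all 6 lambs.

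After scaling, the log2 level of CDK1 relative to the 75th percentile was -0.51, -0.25 and -0.34 in large wave lambs 1 to 3 and -0.82, -0.92 and -0.68 in small wave lambs 1 to 3. All 3 large wave arrays lay above all 3 small wave arrays, with a gap of 0.17 between the lowest large wave and the highest small wave array. Of the 9223 probes with a value on 6 arrays, 4.87% had all large wave arrays above all small wave arrays and 4.89% the reverse. The group means were -0.36 ± 0.13 and -0.80 ± 0.12 (SD, n = 3 each).

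The difference in CDK1, large wave minus small wave, was 0.44 ± 0.30 on the log2 scale (SE), which is 1.36-fold with a 95% confidence interval of 0.838 to 2.19. It did not pass the threshold (limma adjusted p = 0.778, range over the alternatives 0.262 to 0.999), and neither did any of the 10041 probes tested, 0% of them, with 384 probes, 3.82%, at an unadjusted p under 0.05. The exact permutation test of 3 against 3 arrays gave p = 0.10 (two-sided), the smallest that this design allows. CDK1 was higher in the large wave lamb of each same-numbered pair, by 0.31, 0.67 and 0.34, as were 17.5% of the probes with 6 values. Within the upper row of the slide the difference was 0.52 and within the lower row 0.29, each with 1 array in one of the groups.

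H2AZ1 gave a strong signal on every array. Its processed signal was 5268, 3609 and 2932 in large wave lambs 1 to 3 and 2131, 834 and 1460 in small wave lambs 1 to 3. It stood 520 to 624 times above the lowest signal well above background in large wave skin and 92.7 to 318 times above it in small wave skin. No spot of either gene was saturated or marked as an outlier. Signals of different probes depend on the probe as well as on the transcript, so the levels of the 2 genes are not set against each other.

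After scaling, the log2 level of H2AZ1 was 3.75, 4.14 and 3.56 in large wave lambs 1 to 3 and 2.90, 2.45 and 3.95 in small wave lambs 1 to 3. The groups overlapped through 1 array, small wave replicate 3, which lay above large wave replicates 1 and 3, whereas small wave replicates 1 and 2 were the lowest of the 6. The group means were 3.82 ± 0.30 and 3.1 ± 0.77 (SD, n = 3 each), so that the spread was wider in small wave skin.

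The difference in H2AZ1 was 0.71 ± 0.42 on the log2 scale (SE), 1.64-fold with a 95% confidence interval of 0.838 to 3.21, and did not pass (limma adjusted p = 0.778, range over the alternatives 0.175 to 0.999; exact permutation p = 0.30, two-sided). The paired differences were 0.85, 1.69 and -0.39 in pairs 1 to 3. Within the upper and lower rows of the slide the difference was 0.94 and 0.55. Without small wave replicate 3 it was 1.14, and without small wave replicate 2 it was 0.39.

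**Figure D1:**
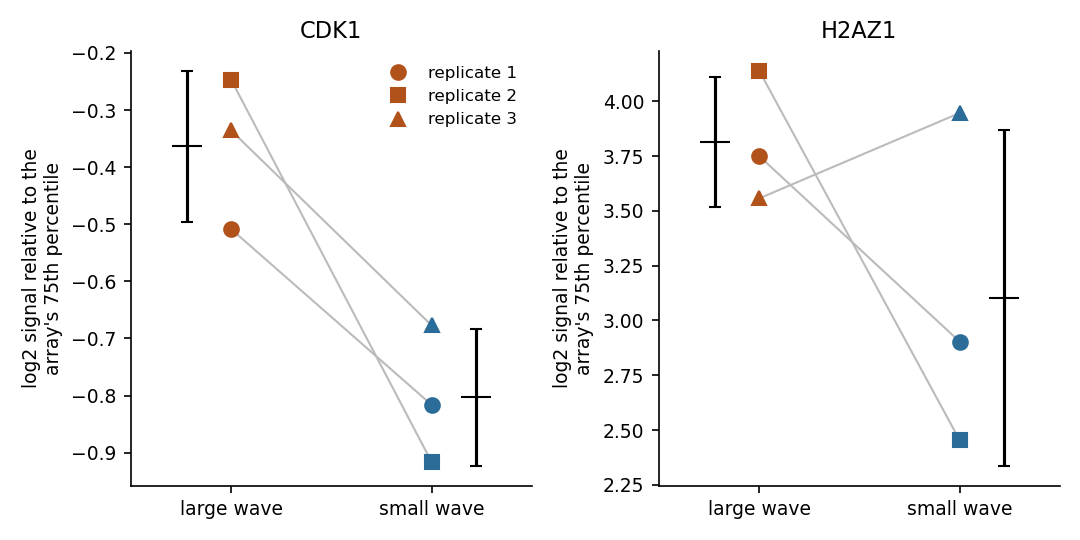
Log2 signal of CDK1 (left) and H2AZ1 (right) relative to each array's 75th percentile, on the vertical axes, in the 3 large wave and 3 small wave lambs; grey lines join arrays with the same replicate number and black bars give mean ± SD (n = 3). CDK1 lay between -0.51 and -0.25 in large wave and between -0.92 and -0.68 in small wave skin, whereas small wave replicate 3, at 3.95, brings the groups of H2AZ1 to overlap.

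The plot of both genes by lamb shows the separate groups of CDK1 and the single small wave array that reaches into the large wave range for H2AZ1. In descending order the CDK1 levels ran from large wave replicate 2 through large wave replicates 3 and 1 to small wave replicates 3, 1 and 2, with steps of 0.089 to 0.17 between neighbours. For H2AZ1 the order was large wave 2, small wave 3, large wave 1, large wave 3, small wave 1 and small wave 2, with steps of 0.19 to 0.20 among the upper 4 arrays, 0.65 below them and 0.45 between the lowest arrays. Spots of one probe on one array differed by a median SD of 0.18 to 0.52 on the same scale, over 28 probes spotted 5 times and depending on the array. That spread covers single spots, not the variation between lambs. The step of 0.65 in H2AZ1 was the only one above it, and the steps in CDK1 were all below it.

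The joint variation of the members was described over the 6 arrays. Large wave replicate 2 was highest and small wave replicate 2 lowest for both genes. Pearson's r was 0.802 (exact permutation p = 0.065, two-sided, n = 6) and Spearman's rho 0.771 (exact permutation p = 0.103), with 1 relation computed. Neither passed 0.05. Without large wave replicate 2 and small wave replicate 2, the arrays farthest from the median of CDK1, r was 0.460 (exact permutation p = 0.667, n = 4). These are the extremes of CDK1, so leaving them out narrows its range, and 4 arrays allow only 24 orders. Without large wave replicate 2 alone r was 0.718, and without small wave replicate 2 alone 0.654.

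Variation within the coat groups was compared too. As deviations from the group means, CDK1 in large wave lambs 1 to 3 was at -0.14, 0.12 and 0.03 and H2AZ1 at -0.07, 0.32 and -0.26. In small wave lambs 1 to 3 CDK1 was at -0.01, -0.11 and 0.13 and H2AZ1 at -0.20, -0.65 and 0.84. The correlation of these deviations was 0.756 (exact permutation p = 0.076, n = 6; removing group means leaves fewer independent values than arrays). With array brightness regressed out of both genes r was 0.847 (exact permutation p = 0.0375). That p treats the residuals as 6 independent values, though the regression leaves fewer. On unscaled signals, which still hold the shared brightness, r was 0.873 (exact permutation p = 0.021).

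**Figure D2:**
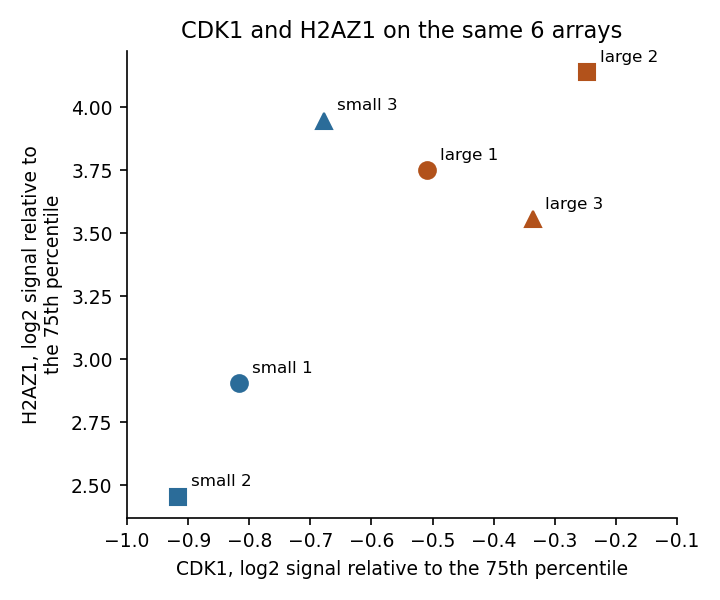
Each point is 1 array, with CDK1 on the horizontal and H2AZ1 on the vertical axis, both as log2 signal relative to the array's 75th percentile; brown marks large wave and blue small wave lambs, and the shape gives the replicate number. Small wave replicates 2 and 1 lie lowest and large wave replicate 2 highest for both genes (r = 0.802, n = 6).

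In the plot of one gene against the other, small wave replicate 3 departs furthest from the common trend, with H2AZ1 at 3.95 and CDK1 at -0.68. Without that array r was 0.944 (exact permutation p = 0.025, n = 5). It was picked for its departure in these same values, so leaving it out had to raise r. Leaving out any other array gave r of 0.654 to 0.865 (exact permutation p = 0.058 to 0.225, n = 5). Among the 307 other named genes with a value on all arrays, H2AZ1 had the 3rd highest r with CDK1, and CDK1 the 3rd highest with H2AZ1. Over all 9222 other probes measured on 6 arrays, 1.41% had an r with CDK1 at least as high as that of H2AZ1, and 1.21% an r with H2AZ1 at least as high as that of CDK1. The arrays, their brightness and their scaling are shared by all these values, so this is a description of likeness over 6 arrays.

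Among the genes most like CDK1 by this measure were LPAR1, a receptor for lysophosphatidic acid (r = 0.819), H2AZ1 and AKT1, a kinase of growth factor signalling (r = 0.75). Their differences, large wave minus small wave, were 0.83 ± 0.37 for LPAR1 and 0.59 ± 0.29 for AKT1 (SE). The genes most like H2AZ1 were EIF1AX, a translation initiation factor (r = 0.846), ATF4, a transcription factor of the stress response (r = 0.835), CDK1, the dermal proteoglycan biglycan, BGN (r = 0.759), and the milk protein gene CSN2 (r = 0.756). Of these, EIF1AX differed by 0.37 ± 0.57, ATF4 by 0.16 ± 0.33, BGN by -0.03 ± 0.38 and CSN2 by 0.39 ± 1.02.

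The scanner software changed the 2 spots differently before any scaling. CDK1 lies in spot row 170 and H2AZ1 in spot row 12. The processed signal, which holds Feature Extraction's background subtraction and detrending, was divided by the net signal, the median of the spot minus that of its local background. For CDK1 this ratio was 0.981, 1.19 and 1.56 in large wave lambs 1 to 3 and 0.935, 1.0 and 1.08 in small wave lambs 1 to 3. For H2AZ1 it was 1.06, 0.919 and 0.749 in large wave and 1.09, 1.34 and 1.37 in small wave lambs 1 to 3. The correction thus went up for CDK1 and down for H2AZ1 in large wave replicate 3, and up for H2AZ1 in small wave replicates 2 and 3.

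**Figure D3:**
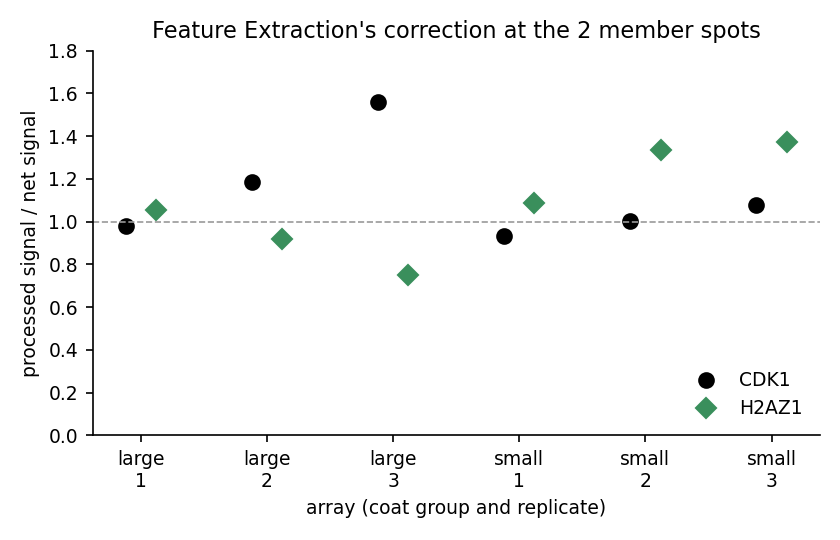
Ratio of processed to net signal (vertical axis, no unit) at the CDK1 spot (black circles) and the H2AZ1 spot (green diamonds) on each of the 6 arrays; the dashed line marks no change. The values run from 0.749 for H2AZ1 to 1.56 for CDK1, both in large wave replicate 3.

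The plot of this ratio shows 0.749 to 1.06 in large wave and 1.09 to 1.37 in small wave skin for H2AZ1. The share of all probes whose ratio parts the groups in this way is not known, and the cause was not tested. Pair 3 was the pair in which the scaled H2AZ1 level was lower in the large wave lamb. There the processed signal of H2AZ1 was 2.01 times and the net signal 3.68 times higher in the large wave lamb, and the scaled difference, -0.39 on processed signals, was 0.52 on net signals. For CDK1 in the same pair the processed signal was 3.33 times and the net signal 2.30 times higher, and the scaled difference of 0.34 became -0.16.

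The size of both differences therefore depended on the signal used, in opposite ways. From net signals scaled in the same way, CDK1 differed by 0.19 ± 0.29 and H2AZ1 by 1.24 ± 0.42 (SE). After normexp background correction and quantile normalization CDK1 differed by 0.13 ± 0.19 and H2AZ1 by 1.31 ± 0.32. After quantile normalization of the processed signals they differed by 0.41 ± 0.30 and 1.01 ± 0.35. H2AZ1 had no overlap between the groups after normexp correction, after quantile normalization, in the authors' deposited table, on net signals and after scaling to the spike-in controls. CDK1 had none after quantile normalization, in the authors' deposited table and after spike-in scaling, but overlapped after normexp correction, on net signals and when scaled to the array median. The share of probes with all large wave arrays above all small wave arrays was 5.25% after normexp correction, 4.93% after quantile normalization, 4.92% in the authors' deposited table, 3.71% on net signals, 3.72% with the array median and 10.9% with spike-in scaling.

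**Figure D4:**
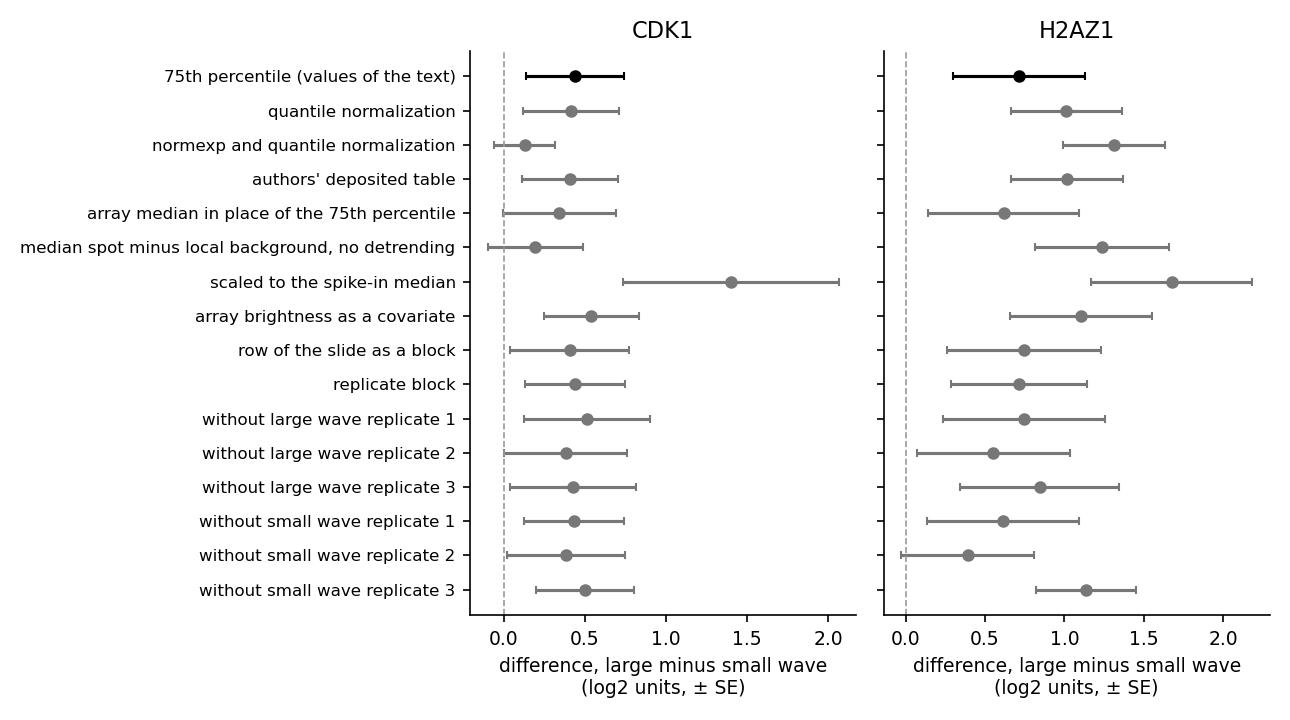
Difference between large wave and small wave skin (horizontal axes, log2 units, ± SE) of CDK1 (left) and H2AZ1 (right) for each way of processing and each array left out. Every value is above 0, from 0.13 to 1.40 for CDK1 and from 0.39 to 1.68 for H2AZ1, and none passed the adjusted threshold.

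The plot of the differences by processing shows the same direction throughout. Over 20 alternatives the CDK1 difference ranged from 0.13 to 1.40 and the H2AZ1 difference from 0.39 to 1.68, with 0 past the adjusted threshold in limma. Some alternatives could not change the direction. Keeping marked spots, other filters, the replicate block and no variance trend left the differences at 0.44 and 0.71 by construction. The highest values came from scaling to the spike-in controls, which moved the median difference of all probes from -0.02 to 0.94. Relative to that median CDK1 differed by 0.46 and H2AZ1 by 0.73 under either scaling. With array brightness as a covariate CDK1 had 0.54 ± 0.29 and H2AZ1 1.11 ± 0.45, and with array weights H2AZ1 had 1.10 ± 0.32.

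Other cell cycle genes were taken from lists of cyclins and cyclin-dependent kinases, inhibitors, replication, mitosis, chromatin and transcription factors. Of 124 listed genes besides the members, 8 had a named probe, and each of the 8 was tested. Higher mean values in large wave skin were found for 7 and lower ones for 1, with a median difference of 0.17. Over all probes tested 48.7% had higher values and the median was -0.02. None of the 8 passed (limma). The count of genes with higher values was 5 of 8 with the array median, 7 of 8 after normexp correction, quantile normalization or in the authors' deposited table, and 8 of 8 with spike-in scaling. Over all probes tested the share with higher values was 42.3% with the array median, 52.3% after normexp correction, 53.1% after quantile normalization, 53% in the authors' deposited table and 94.1% with spike-in scaling, which moves every probe up alike.

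Besides CDK1, the cyclin-dependent kinases CDK2 and CDK4 were measured. CDK2, which acts with cyclins E and A at the start of and during DNA synthesis, had log2 levels of -0.70, -0.75 and -1.02 in large wave lambs 1 to 3 and -1.15, -1.22 and -1.69 in small wave lambs 1 to 3. As with CDK1, its groups did not overlap, against 4.87% of probes. Its difference was 0.53 ± 0.34 (SE, 1.44-fold, limma adjusted p = 0.778), with 0.44, 0.47 and 0.67 in pairs 1 to 3.

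CDK4, the partner of D cyclins in G1, had 0.37, 0.92 and 0.76 in large wave and 0.004, 0.40 and -0.12 in small wave lambs 1 to 3. Large wave replicate 1 lay just below small wave replicate 2, so the groups overlapped. They did not overlap after normexp correction, after quantile normalization, in the authors' deposited table and with spike-in scaling, where those of CDK2 did. The difference was 0.59 ± 0.31 (SE, 1.51-fold, limma adjusted p = 0.778), with 0.37, 0.53 and 0.88 in pairs 1 to 3. All 3 cyclin-dependent kinases measured had higher values in the large wave lamb of each pair, against 17.5% of probes, except that CDK1 in pair 3 was at -0.067 after normexp correction and at -0.16 on net signals. Mean CDK2 and CDK4 were higher under each of 20 alternatives, at 0.26 to 1.49 and 0.36 to 1.56, though some of these leave the difference unchanged by construction. CDK4 had the 6th highest r with CDK1 among the named genes (0.747) and CDK2 the 22nd (0.571), while their r with H2AZ1 was 0.27 and 0.19.

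For the remaining cell cycle genes the error exceeded the difference in the 75th percentile scaling. AURKA is the mitotic kinase Aurora A. Its log2 level was -2.26, -2.12 and -2.86 in large wave and -2.65, -2.09 and -3.13 in small wave lambs 1 to 3, with a difference of 0.21 ± 0.44 (SE) and groups that overlapped. It was well above background on 5 of 6 arrays, all but small wave replicate 3.

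Of the chromatin genes other than H2AZ1, DNMT1, which copies DNA methylation at replication, had 0.12 ± 0.32 (2 large wave arrays), 0.50 ± 0.27 after normexp correction, 0.44 ± 0.33 after quantile normalization and -0.25 with outlier-marked spots kept. ASF1A, a histone chaperone, had 0.07 ± 0.39. RPA1, which coats single-stranded DNA at replication forks, had -0.35 ± 0.57, and 0.36 with array brightness as a covariate.

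The inhibitor CDKN1C (p57) had 0.80 ± 1.52, with small wave replicate 3 at -5.08 and the other arrays between -2.22 and 1.16; without that array its difference was -0.98. On that array the signal of 2.80 was not well above background, whose lowest such signal was 4.60, so CDKN1C was measured on 5 of 6 arrays. MYC, a transcription factor of growth, had 0.10 ± 1.25, with large wave replicate 2 at -1.58 and the other arrays between 0.29 and 3.65, and 1.67 without that array. Its second probe had 0.04 ± 0.35. CDKN1C and MYC had an SD of 1.04 to 3.21 within the groups, against 0.12 to 0.13 for CDK1.

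**Figure D5:**
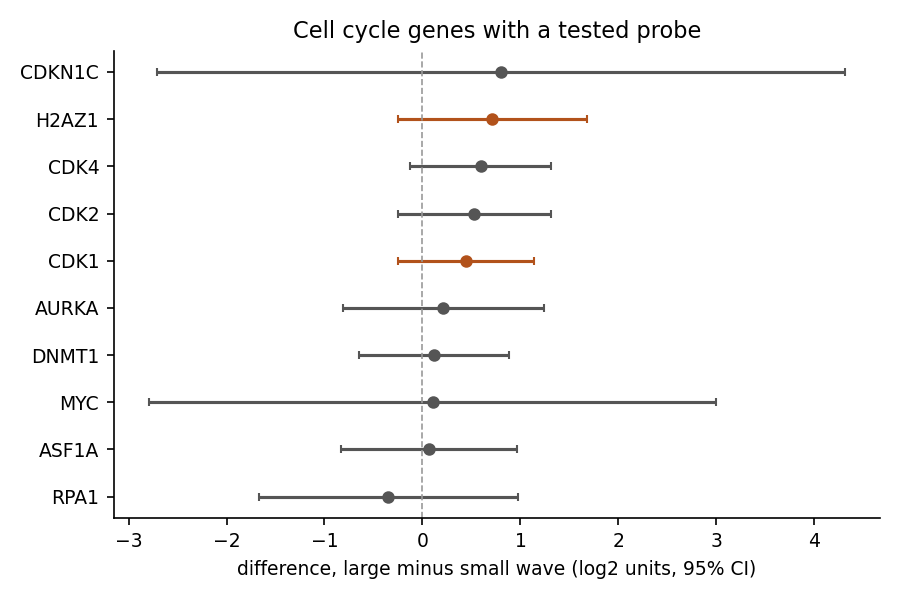
Difference between large wave and small wave skin (horizontal axis, log2 units) with its 95% confidence interval for 10 cell cycle genes with a tested probe; CDK1 and H2AZ1 are in brown. Each interval holds 0, and the intervals of CDKN1C and MYC are the widest.

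The plot of cell cycle genes places CDK1, CDK2, CDK4 and H2AZ1 between 0.44 and 0.71. CDKN1C lies above them at 0.80, ASF1A, MYC, DNMT1 and AURKA at 0.07 to 0.21, and RPA1 below 0. Each interval includes 0.

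Markers of other cell types were set beside the members, as sums that, unlike the tests, include outlier-marked spots. The summed log2 level of the 5 hair shaft keratins was 7.77 to 8.96 in large wave and 8.16 to 9.16 in small wave skin, and that of the 4 inner root sheath genes 7.15 to 8.33 and 8.17 to 9.26, so both overlapped between the groups. Within the inner root sheath list PADI3, a peptidylarginine deiminase, differed by 1.04 ± 0.35 (SE) with no overlap, against 4.87% of probes. GATA3 had -0.48 ± 0.39, and KRT25 had -0.80 ± 0.71 without a value in small wave replicate 3. The second probe of KRT25 went the other way, at 0.38 ± 0.46. Those of PADI3 and GATA3 kept their direction, at 1.16 ± 0.49 and -0.58 ± 0.35. KRT27 had -0.15, with 1 unmarked spot left in small wave skin. Marked spots were left out of all these values. Of the 5 hair shaft keratins 2 had higher and 3 lower means in large wave skin, against 48.7% of all probes with higher means. Higher means were found for 3 after normexp correction or quantile normalization (52.3 and 53.1% of all probes). In the authors' deposited table all 5 were higher (53% of all probes), and with brightness as a covariate 1 was. KRT35 had -0.98 with marked spots left out, on 2 small wave arrays, and 0.13 with them kept. Its second probe had -0.69 ± 0.51. The lymphocyte and myeloid list, whose cells can also divide, had 3 tested genes of 12 listed, with a sum of -2.26 to -1.55 in large wave and -1.97 to -0.81 in small wave skin; CD4 was well above background on 1 array and ITGAM on 0. Endothelium had 1 measured marker of 7, AQP1, at -3.63 to -3.16 in large wave and -2.45 to 0.43 in small wave skin. AQP1 differed by -2.29 ± 0.70 (SE, limma adjusted p = 0.778), with all large wave arrays below all small wave arrays, against 4.89% of probes. The 3 measured adipocyte markers of 9 listed had lower means in large wave skin, as had 5148 of all 10041 probes tested. Their sums were 1.59 to 1.87 in large wave and 1.75 to 2.75 in small wave skin. The second probe of PLIN1 had 0.04 ± 0.41, and LPL was well above background on 4 arrays. SFN, the 1 measured suprabasal marker, differed by -1.12 ± 0.45 on 2 arrays per group, with marked spots left out. With them kept it had -0.77, after quantile normalization -0.23, in the authors' deposited table -0.26 and after normexp correction 0.12. Sums of the fibroblast and dermal papilla list were 5.23 to 5.57 in large wave and 0.74 to 6.0 in small wave skin. The 0.74 was that of small wave replicate 3, where the spot of DCN was marked as an outlier. DCN differed by 0.10 with marked spots left out and by 1.83 with them kept. Sums of the skeletal muscle list, with 2 tested genes of 14 listed, were -1.26 to -0.55 and -1.46 to -1.05. Its genes went opposite ways without overlap, MYL11 by 0.74 ± 0.37 (against 4.87% of probes) and TNNC2 by -1.35 ± 0.43 (against 4.89%). The second probe of TNNC2 had -0.54 ± 0.58. None of these markers passed the threshold. The part of these cell types in the differences of CDK1 and H2AZ1 was not tested.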

How the data were processed

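RNA of dorsal skin from 6 Hu lambs was labelled with Cy3 and hybridised to 1 slide of one-colour arrays. The authors' deposited scanner files hold spot intensity values that, per the file headers, came from Agilent Feature Extraction 10.7.3.1 (the submitters' processing notes say 10.7), background-subtracted and detrended within the array but not scaled between arrays. The deposited value table holds the authors' log2 values, by steps not given in the sources used here; it followed quantile-normalised processed signals closely in every column (lowest r across probes 0.99999).

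Log2 processed signals were taken minus each array's 75th percentile over 15208 non-control spots. Spots marked as outliers were left out, and spots of a probe averaged. Of 15008 probes, those detected above background on 3 or more arrays were kept, and 10041 were tested with limma 3.58.1 in R 4.3.3 (lmFit, eBayes with trend, Benjamini-Hochberg, threshold 0.05), without a block. The model was tested on simulated data. Genes were named by RefSeq accession through RefSeq's gene table (ARS-UI_Ramb_v3.0), where 767 of 786 accession-bearing probes were found; they name 500 genes, and 348 were tested. The array files name no genome build and hold no probe sequences, so no coordinates or sequences are given, and cross-hybridisation of the H2AZ1 probe with its close relative H2AZ2 was not tested.

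Named are both members, each measured gene of the cell cycle lists (by its kept probe of highest mean), and for each member the 5 named genes of highest Pearson r over 6 arrays; some items are not reported here. The members and lists were chosen with earlier results of these data known. Correlations and 3 against 3 comparisons used exact permutation tests. The number of arrays limits the precision: the median probe had a 95% interval of ± 1.06 log2 units.

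The labels number lambs 1 to 3 per coat type. No label says that the numbers mark the dam pairs, and same-numbered lambs were taken as pairs on that assumption. They deviated from their group means with correlations of 0.304, 0.181 and 0.205 across probes. Without the values of different-numbered lambs, these correlations cannot show that the numbers mark the pairs. Same-numbered lambs also shared a column of the slide, and dam and column cannot be told apart. Replicate 1 was the brightest array of both groups (75th percentile 392 and 285). Alternatives were other background corrections and normalizations (normexp with offset 50, quantile, array median, the authors' table), filters, blocks, array weights, brightness as a covariate, no variance trend and each array left out. Scaling to the spike-in median, net signals without detrending and unscaled signals were added after seeing the data.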

Additional observations from a re-analysis of the deposited data

How the results depend on the processing

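The count of probes past the adjusted limma threshold was 0 under each of 20 alternatives, and the differences of CDK1 and H2AZ1 kept their direction and stayed short of the threshold in each. Filters, the replicate block, marked spots kept and no variance trend could not change either difference. Leaving out 1 array at a time gave 0.38 to 0.51 for CDK1 and 0.39 to 1.14 for H2AZ1. With the replicate number as a block, pairing the lambs, the differences were 0.44 and 0.71 (limma adjusted p = 0.635 and 0.624), 585 probes in place of 384 had an unadjusted p under 0.05, and no call changed. That unadjusted count was 2172 with array weights, 1764 without small wave replicate 1, 553 without a filter on dim probes, 252 with brightness as a covariate, 141 with the slide row as a block, 154 when large wave replicate 3 was left out and 198 when small wave replicate 3 was. The joint variation of CDK1 and H2AZ1 (r = 0.802) was computed under 17 alternatives. An unadjusted exact permutation p under 0.05 was reached after quantile normalization (r = 0.878) and in the authors' deposited table (r = 0.877). The same held with the array median (r = 0.857), given array brightness (r = 0.847) and without small wave replicate 3 (r = 0.944). It also held with spike-in scaling (r = 0.899) and unscaled (r = 0.873), where brightness differences between arrays remain in both genes. Brightness residuals hold fewer independent values than arrays, and small wave replicate 3 departed furthest from the trend. Each array left out gave 0.654 to 0.944, normexp correction 0.624 and net signals 0.544. The causes were not tested. Both members had 1 probe, so averaging over probes or trying other probe pairs could give no value.

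None of the 8 other cell cycle genes passed under an alternative, and 6 changed sign under some. With brightness as a covariate CDKN1C had -1.28, RPA1 0.36 and MYC -0.49. With array weights CDKN1C had -0.83 and AURKA -0.21. With the array median DNMT1 had -0.050 and ASF1A -0.031, and ASF1A had -0.011 with the slide row as a block. With spike-in scaling, which adds the same shift to every gene with a value on 6 arrays, RPA1 had 0.61. DNMT1 had -0.25 with marked spots kept, and MYC -0.26 on net signals. Leaving out 1 array at a time gave -0.98 to 2.14 for CDKN1C, -0.83 to 0.22 for RPA1, -0.038 to 0.48 for AURKA, -0.061 to 0.30 for DNMT1, -0.13 to 0.32 for ASF1A and -0.94 to 1.67 for MYC.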
